A study of Mus musculus with 28 samples.

Results

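The genes described here are 7 core pluripotency genes of the mouse: Pou5f1 (encoding OCT4), Sox2, Nanog, Sall4, Zfp42 (encoding REX1), Utf1 and Lin28a. Of the 127646 regions whose coverage the authors deposited, 90 were assigned to them, because the nearest start of a protein-coding gene was that of a member and lay within 50 kb of the region's centre (within 150 kb for Sox2). Sox2 had 25 regions, Nanog 23, Zfp42 19, Utf1 8, Pou5f1 7, Sall4 5 and Lin28a 3. Each of the 7 genes had 1 region within 1 kb of its transcription start site (TSS), called proximal here, and the other 83 lay further away. The choice of regions used distance only, not coverage.

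The samples were asynchronous mouse embryonic stem cells (mESCs) with the FOXD3-iKO genotype, an inducible knockout of the forkhead transcription factor FOXD3, kept in L2i medium, and the label gives a treatment time of 24 h for all of them. For H3K27ac there were 2 samples treated with EtOH, the solvent, and 2 treated with 4HT (4-hydroxytamoxifen), which induces the depletion. For H2BK120ac there were 3 samples per group, and the 4 groups carry the codes ED, ET, TD and TT. What a code stands for is not stated in the labels, so that it is not known here which groups were depleted of FOXD3. How the knockout is driven, and whether the line is 1 clone, is likewise not stated there. Both marks were mapped with CUT&Tag: a transposase tethered to the antibody cuts next to marked nucleosomes, and the fragments it releases are sequenced. The authors merged the replicates of a group into 1 column, so that no spread between replicates can be given and no test between groups was possible. Each comparison below is therefore a comparison of 2 merged columns. Its interval is a 95% Clopper-Pearson interval on mean pile-up depth, in units of 1 fragment, taken as if it were a count. It stands for counting error only, and only approximately.

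OCT4 and SOX2 bind DNA side by side at many enhancers of mESCs and, with NANOG and SALL4, bind regulatory DNA of one another's genes. UTF1 and REX1 are nuclear proteins and LIN28A is an RNA-binding protein that blocks maturation of let-7 miRNAs. All are widely used as markers of pluripotent cells. H3K27ac, an acetylated lysine in the tail of histone H3, marks active enhancers and promoters. H2BK120ac is acetylation of a lysine near the end of histone H2B that can carry ubiquitin instead, and it too is found at active regulatory DNA.

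Promoter sequences were taken from RefSeq on GRCm38.p6, the build also called mm10, for 6 of the 7 genes. Those of 4 genes are shown because the regions at these starts carry the proximal coverage described below, and they differ in the motifs that they hold. Each runs 5′ to 3′ along the gene over the 250 bases before its start, and capitals mark motif matches.
Pou5f1, chr17:35505782-35506031, plus strand: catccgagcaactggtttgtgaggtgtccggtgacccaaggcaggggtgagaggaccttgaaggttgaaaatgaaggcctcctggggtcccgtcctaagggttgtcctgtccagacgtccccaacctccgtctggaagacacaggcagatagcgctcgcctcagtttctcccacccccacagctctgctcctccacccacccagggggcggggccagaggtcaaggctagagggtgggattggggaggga
Sox2, chr3:34649745-34649994, plus strand: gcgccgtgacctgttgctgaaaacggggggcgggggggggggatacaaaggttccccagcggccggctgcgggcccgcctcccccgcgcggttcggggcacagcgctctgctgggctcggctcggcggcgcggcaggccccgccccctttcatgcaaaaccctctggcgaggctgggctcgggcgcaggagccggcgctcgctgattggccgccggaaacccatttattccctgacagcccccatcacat
Nanog, chr6:122707239-122707488, plus strand: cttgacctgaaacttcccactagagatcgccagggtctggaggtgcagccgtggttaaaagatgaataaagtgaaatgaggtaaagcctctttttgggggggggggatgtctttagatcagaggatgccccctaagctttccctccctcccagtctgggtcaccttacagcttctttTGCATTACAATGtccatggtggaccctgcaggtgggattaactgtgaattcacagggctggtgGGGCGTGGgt
Zfp42, chr8:43307010-43307259, minus strand: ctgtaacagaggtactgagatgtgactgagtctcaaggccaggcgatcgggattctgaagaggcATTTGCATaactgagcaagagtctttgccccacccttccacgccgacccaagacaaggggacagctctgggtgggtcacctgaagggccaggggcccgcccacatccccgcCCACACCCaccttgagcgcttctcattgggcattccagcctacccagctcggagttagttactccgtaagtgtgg
In Nanog the first run of capitals, 73 to 62 bases upstream, matches on the opposite strand a loose form of the OCT-SOX composite, which 9 of 17492 promoters held (0.0515%). The SOX core ACAATG, held by 9.57% of promoters, overlaps its end on the gene's strand. The second run, 10 to 3 bases upstream, is the KLF core GGGCGTGG. The KLF core was counted together with GGGTGTGG, and 9.42% of promoters held either form. In Zfp42 the first run, 186 to 179 bases upstream, is the octamer ATGCAAAT on the opposite strand (1.62% of promoters), and the second, 75 to 68 bases upstream, is GGGTGTGG on the opposite strand. Lin28a, whose sequence is not shown, held 1 SOX core 96 to 91 bases upstream. The windows of Pou5f1, Sox2 and Utf1 held none of the motifs searched. No member's window held the forkhead core TGTTTAC or its variants TGTTTGC and TATTTAC (8.47% of promoters), the ESRRB core TCAAGGTCA (0.314%) or TATAAA (12.4%). The strict form of the OCT-SOX composite was in none of the 17492 windows. All motifs were searched on both strands. The 250 bases were 72% G or C in Sox2, 62% in Pou5f1, 61.6% in Utf1, 61.2% in Lin28a, 58.4% in Zfp42 and 52% in Nanog, beside a median of 55.2% over all promoters.

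Coverage is given in CPM (counts scaled to a fixed library total), as the authors scaled it, and a region without coverage is given as 0. The commonest value of a column, read as that of 1 fragment, lay between 0.412 and 0.445 for the 4 H2BK120ac groups and was 0.165 for EtOH and 0.207 for 4HT. The lowest H2BK120ac value was 0.25 of that unit, so its fragment numbers and intervals rest on this reading. Fragment numbers given for a region are its mean depth of pile-up in that unit, not a count of the fragments in it. In units of 1000000 fragments the implied depths were 2.25 to 2.43 for H2BK120ac, 6.08 for EtOH and 4.82 for 4HT. A region is called well covered where its mean over a table's groups reached the value of 5 fragments, 2.15 for H2BK120ac and 0.93 for H3K27ac. Of the 90 regions 36 were well covered in H3K27ac, and 12 of these also in H2BK120ac. The 12 were 5 of Sox2, 4 of Zfp42, 2 of Nanog and 1 of Pou5f1, while Sall4, Utf1 and Lin28a had none. Between 3 (4HT) and 20 (TT) of the 90 had no coverage at all. The label of pluripotent cells was checked on H3K27ac in EtOH, taking the mean over a gene's regions. The median was 1.41 over the 7 members and 0.986 over 29 measured genes of the wider pluripotency network. It was 0.340 for fibroblast feeder markers, 0.261 for primitive endoderm, 0.341 for neuroectoderm, 0.406 for mesendoderm and 0.291 for trophectoderm. In H2BK120ac the lists did not separate as far. In ET the median was 1.36 over 4 measured feeder markers, above 1.22 for the members and 0.825 for the network, and in TT it was 1.07 for 3 neuroectoderm markers and 1.07 for the members. In ED and TD the members stood above every other list, at 0.961 and 1.23, beside at most 0.908 and 1.04. The part of other cell types in the results was not tested. At Foxd3, the targeted gene, the mean was 1.46 in EtOH and 2.77 in 4HT for H3K27ac, and for H2BK120ac it was 1.22, 1.84, 0.817 and 1.16 in ED, ET, TD and TT. Acetylation around a gene is not a measure of its RNA or protein, so these values do not check the depletion.

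H3K27ac was densest upstream of Pou5f1, downstream of Sox2 and upstream of Nanog, and values of the 3 genes in 4HT were near or above those in EtOH. Of the 36 well-covered regions 30 had a higher value in 4HT, with a median log2 fold of 0.31 on log2(value + 0.2). Over all 13807 well-covered regions 76.4% were higher and the median was 0.33. After quantile normalization, which forces both columns to one distribution, 16 of the 36 were higher, with a median of -0.03. Of the 36, 2 were at least 2-fold higher in 4HT, 5.56% beside a background of 7.68%, and none was 2-fold lower, beside 0.739%. The 2 were the Nanog region 11893 bp upstream and the Zfp42 region 1097 bp downstream of the TSS, and neither was 2-fold higher after quantile normalization. The interval of the ratio included 1 for all 36 regions, whereas over all well-covered regions it lay above 1 in 3.88% and below 1 in 0.0362%. In bulk profiles like these, a larger share of cells with the mark and more of the mark per cell cannot be told apart.

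**Figure D1:**
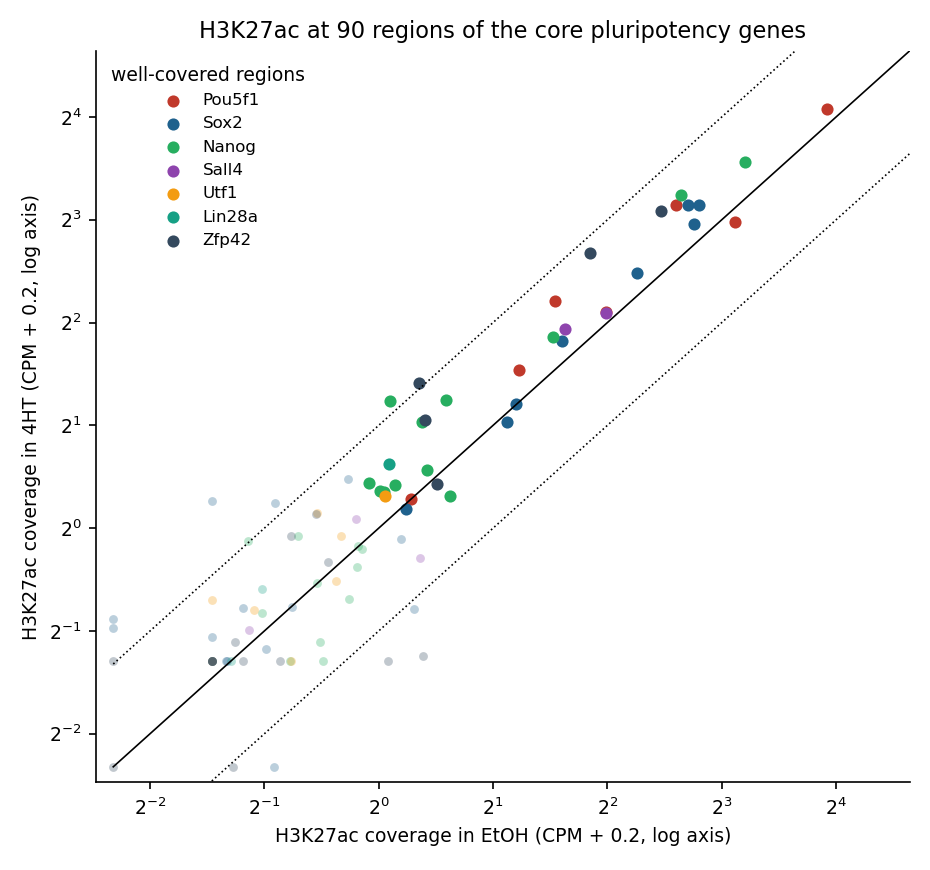
H3K27ac coverage in 4HT (y axis) against EtOH (x axis) for the 90 regions, as CPM + 0.2 on log axes, with equality as a solid line and 2-fold differences as dotted lines. Large points are the 36 well-covered regions, coloured by gene, of which 30 lie above equality (16 after quantile normalization); small pale points are the other 54.

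Pou5f1 encodes OCT4, the POU-domain factor that pluripotent cells depend on. Its gene lies on chromosome 17 from 35506032 to 35510777, plus strand. All 7 of its regions were well covered in H3K27ac, and 5 of them lay in the last 3101 bp before the TSS. The region centred 1904 bp upstream (chromosome 17, 35503875 to 35504382) had 14.9 in EtOH and 16.7 in 4HT, a ratio of 1.12 (0.821 to 1.53). It ranked 8 of 127646 regions in EtOH and 18 in 4HT. The region 1380 bp upstream (35504567 to 35504737) had 8.44 in EtOH and 7.70 in 4HT, a ratio of 0.912 (0.582 to 1.42), and was one of the 6 well-covered member regions that were not higher in 4HT. The region 1116 bp upstream (35504815 to 35505017) had 5.86 in EtOH and 8.66 in 4HT (ratio 1.48, 0.919 to 2.36). At the region 3101 bp upstream (35502854 to 35503008) the values were 2.71 and 4.41 (ratio 1.63, 0.822 to 3.39). The proximal region, 68 bp upstream (35505908 to 35506021), had 3.76 in EtOH and 4.08 in 4HT (ratio 1.08, 0.571 to 2.09). That was less than the regions 1116 to 1904 bp upstream, while the region 3101 bp upstream was below it in EtOH and above it in 4HT. The region 15484 bp upstream (35490416 to 35490680) had 2.13 and 2.71, and the region 3538 bp downstream, inside the gene (35509460 to 35509680), had 1.02 in both groups. H3K27ac at Pou5f1 thus peaked upstream of the promoter in both groups.

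Sox2 encodes the HMG-box partner of OCT4 and lies on chromosome 3 from 34649995 to 34652461, plus strand. Its H3K27ac was highest not at the gene but in 4 regions 106.8 to 111.4 kb downstream, none of which overlapped a protein-coding gene. They held 4.59, 6.31, 6.75 and 6.56 in EtOH, at 106837, 108004, 110315 and 111379 bp from the TSS. In 4HT the same regions held 5.40, 8.64, 8.61 and 7.60, with ratios between 1.16 (0.725 to 1.87) and 1.37 (0.876 to 2.22). The region at 108004 bp (34757836 to 34758163) ranked 257 of all regions in EtOH and 257 in 4HT. A 5th region of this stretch, at 95324 bp (34745044 to 34745594), had 2.84 in EtOH and 3.32 in 4HT (ratio 1.17, 0.561 to 2.50). Near the gene the levels were lower, and the 3 well-covered regions there differed little between the groups. The proximal region, 140 bp upstream (34649501 to 34650210), had 1.98 in EtOH and 1.84 in 4HT (ratio 0.932, 0.352 to 2.44). The region 4064 bp downstream (34653947 to 34654171) had 0.979 and 0.941 (ratio 0.961, 0.253 to 4.13). At 18638 bp (34668478 to 34668788) the values were 2.10 and 2.11 (interval of the ratio 0.380 to 2.39). The region at 15393 bp (34665279 to 34665497), not well covered, had 1.04 in EtOH and 0.381 in 4HT (ratio 0.366, 0.0415 to 2.35), and at 7293 bp upstream EtOH had no coverage and 4HT 0.343. Summed over the 5 regions 95.3 to 111.4 kb away, the ratio of 4HT to EtOH was 1.24 (0.995 to 1.56), and over the 8 regions within 20 kb it was 0.971 (0.591 to 1.60). These 2 sets were formed after the values were seen, and the difference between them was not tested. The other 17 Sox2 regions had at most 1.04 in EtOH and 1.20 in 4HT.

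Nanog encodes a homeobox factor and lies on chromosome 6 from 122707489 to 122714633, plus strand. All 23 of its regions had H3K27ac coverage in both groups, and 12 were well covered. The densest was 4725 bp upstream (122702292 to 122703236), with 9.01 in EtOH and 11.6 in 4HT (ratio 1.29, 0.868 to 1.90), ranks 57 and 73. Its neighbour 5350 bp upstream (122702040 to 122702238) had 6.06 and 9.22 (ratio 1.52, 0.946 to 2.39). The proximal region, 128 bp upstream (122707099 to 122707623), had 2.68 in EtOH and 3.43 in 4HT (ratio 1.28, 0.636 to 2.83). The proximal region held less than both of these regions, as that of Pou5f1 held less than the regions 1116 to 1904 bp upstream of its TSS. The 3 regions further upstream that were well covered had less. The region 11893 bp upstream (122695509 to 122695683) had 0.874 in EtOH and 2.16 in 4HT, a ratio of 2.48 (0.785 to 9.40) that rests on about 5 fragments in EtOH. At 13236 bp upstream the values were 1.10 and 1.84, and at 17253 bp upstream 0.807 and 1.09. The other 6 well-covered regions lay 20886 to 37193 bp downstream of the TSS, inside the span of Slc2a3, a glucose transporter gene, whose own TSS is further from them. They ranged from 0.742 to 1.34 in EtOH and from 1.04 to 2.18 in 4HT. The region at 37193 bp was the one of these with the lower value in 4HT (1.04 against 1.34), and the region at 36058 bp had the highest 4HT value (2.18 against 1.30).

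Zfp42 encodes REX1, a zinc-finger protein whose gene is a common reporter of the ground state, and lies on chromosome 8 from 43295067 to 43307009, minus strand. The region with the most H3K27ac was 13903 bp upstream (43320500 to 43321325), with 5.32 in EtOH and 8.29 in 4HT (ratio 1.56, 0.965 to 2.59). The proximal region, 205 bp upstream (43306904 to 43307524), had 3.40 in EtOH and 6.18 in 4HT, a ratio of 1.82 (0.997 to 3.31), the largest proximal ratio among the 4 genes whose proximal region was well covered. The region 1097 bp downstream (43305730 to 43306094) had 1.08 and 2.47 (ratio 2.29, 0.784 to 6.47). In contrast, the region 7048 bp downstream, inside the gene (43299856 to 43300067), had 1.22 in EtOH and 1.15 in 4HT (ratio 0.937, 0.300 to 3.75). The region 46698 bp upstream (43353589 to 43353825) had 1.12 and 1.87 (ratio 1.66, 0.537 to 5.12). Of the regions that were not well covered, 2 with more than 5 fragments in EtOH were over 2-fold lower in 4HT, on about 1 fragment there. The region 47598 bp upstream (43354391 to 43354824) had 1.11 in EtOH and 0.222 in 4HT (ratio 0.201, 0.00399 to 1.40), and the region 10978 bp downstream, inside the gene, had 0.861 and 0.207 (ratio 0.241, 0.00533 to 2.25). Summed over all 19 regions of Zfp42 the ratio was 1.42 (1.08 to 1.87).

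The highest regions of Sall4, Utf1 and Lin28a stood below those of Pou5f1, Sox2, Nanog and Zfp42. The mean of Sall4 over its regions, given below, was nevertheless above those of Nanog and Zfp42. Sall4 encodes a zinc-finger factor and lies on chromosome 2 from 168748332 to 168767201, minus strand. In the gene 2 regions were well covered. The region 5903 bp downstream of the TSS (168761151 to 168761446) had 3.76 in EtOH and 4.05 in 4HT (ratio 1.08, 0.571 to 2.09), and the region 1905 bp downstream (168765055 to 168765538) had 2.90 and 3.63 (ratio 1.25, 0.618 to 2.57). The proximal region of Sall4 (168766857 to 168767371) held fewer fragments, 1.08 in EtOH and 0.618 in 4HT (ratio 0.571, 0.0901 to 2.37). Utf1, a chromatin-associated cofactor on chromosome 7 from 139943856 to 139945112, plus strand, had a proximal region (139943665 to 139944545) with 0.570 in EtOH and 0.502 in 4HT. Its single well-covered region, 6692 bp downstream (139950254 to 139950843), had 0.837 and 1.04. Lin28a, on chromosome 4 from 134003330 to 134019196, minus strand, had 0.293 and 0.461 at its proximal region (134018712 to 134019104). Its region 7001 bp downstream, inside the gene (134011704 to 134011926), had 0.863 and 1.34 (ratio 1.55, 0.384 to 6.26). These proximal values rest on about 7 fragments or fewer per group, so a change of either sign was not detectable at this depth. The remaining 2 Sall4, 6 Utf1 and 1 Lin28a regions had between 0.165 and 0.674 in EtOH and between 0.207 and 0.905 in 4HT.

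Averaged over a gene's regions with a mean of at least 0.2, H3K27ac in EtOH followed the order Pou5f1 (5.55), Sox2 (1.93), Sall4 (1.73), Nanog (1.41), Zfp42 (1.26), Utf1 (0.473) and Lin28a (0.454). Among 14866 genes, Pou5f1 stood at percentile 99.98, Sox2 at 96.7, Sall4 at 95.6, Nanog at 92.4, Zfp42 at 90.4, Utf1 at 55.1 and Lin28a at 52.8. In 4HT the means were 6.47, 2.34, 1.89, 1.85, 1.79, 0.599 and 0.669 in the same order, so that only Utf1 and Lin28a exchanged places. Apart from Pou5f1 and the step from Zfp42 down to Utf1, neighbours in this order differed by little. Without replicates their order has no error. Sox2 was taken over 150 kb and every other gene over 50 kb, so its place and percentile are not on an equal footing. Without the filter, its mean in EtOH was 5.41 over the 5 well-covered far downstream regions and 0.82 over the 8 within 20 kb. The log2 folds of the gene means were 0.45 for Zfp42, 0.41 for Lin28a, 0.35 for Nanog, 0.25 for Sox2, 0.25 for Utf1, 0.21 for Pou5f1 and 0.11 for Sall4. None reached 2-fold, beside 2.15% of genes higher and 0.915% lower. After quantile normalization the sign turned for Pou5f1 (-0.19), Sox2 (-0.11) and Sall4 (-0.22). Mean depths were also summed over all of a gene's regions, although neighbouring regions can share fragments. On these sums the interval of the ratio included 1 for Pou5f1 (1.17, 0.968 to 1.41), Sall4, Utf1 and Lin28a. It lay above 1 for Zfp42, for Nanog (1.32, 1.08 to 1.61) and for Sox2 (1.22, 1.01 to 1.48). That is 3 of 7 genes, and over all 14866 genes the interval lay above 1 in 3.05% and below 1 in 0.0605%, a share not matched for depth. The median ratio over all genes was 1.12, and the intervals of Zfp42, Nanog and Sox2 all include it. They thus do not set these genes apart from the shift over all genes. In units of 1 fragment the sums in EtOH and 4HT were 228 and 221 for Sox2, 196 and 205 for Nanog and 103 and 116 for Zfp42.

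H2BK120ac was compared between TD and ED and between TT and ET. In TD and TT, coverage was higher at the Sox2 promoter, just downstream of Sox2 and at the region inside Zfp42 that lies 7048 bp downstream of its TSS. At the main Pou5f1 region, 1904 bp upstream, both TD and TT were below ED and ET, and far downstream of Sox2 the groups overlapped or lay the other way. Among the 12 well-covered member regions TD was 2-fold or more above ED in 4, 33.3% beside a background of 55.1%, and none was 2-fold lower, beside 18.5%. A region could pass the filter, a mean over the 4 groups, through TD and TT alone, as those of Sox2 140 bp upstream and 4064 bp downstream and of Zfp42 7048 bp downstream did. For these 3 a difference was built into the choice, so the counts over the 12 describe them and support no difference. Between TT and ET 3 of the 12 were 2-fold higher, 25% beside 49.6%, and none was lower, beside 21.6%. The median log2 fold of the 12, on log2(value + 0.4), was 0.39 for TD against ED and -0.07 for TT against ET, beside 1.28 and 0.96 over all 2782 well-covered regions. After quantile normalization the medians of the 12 were -0.01 and -0.29 beside 0.91 and 0.80, and 1 of the 12 was 2-fold lower in TD than in ED and 2 in TT than in ET. Proximal regions elsewhere were higher far more often, 88.6% for TD against ED and 85.2% for TT against ET, than distal regions, 49.7% and 43.8%. Only 2 of the 12 member regions are proximal, those of Sox2 and Zfp42. The 36 regions that were well covered in H3K27ac were chosen without H2BK120ac values. Of these, 8 were 2-fold higher in TD than in ED (22.2% beside 20.2%) and none was lower (beside 21%). For TT against ET 7 of the 36 were higher (19.4% beside 17.3%) and 4 lower (11.1% beside 24.1%).

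**Figure D2:**
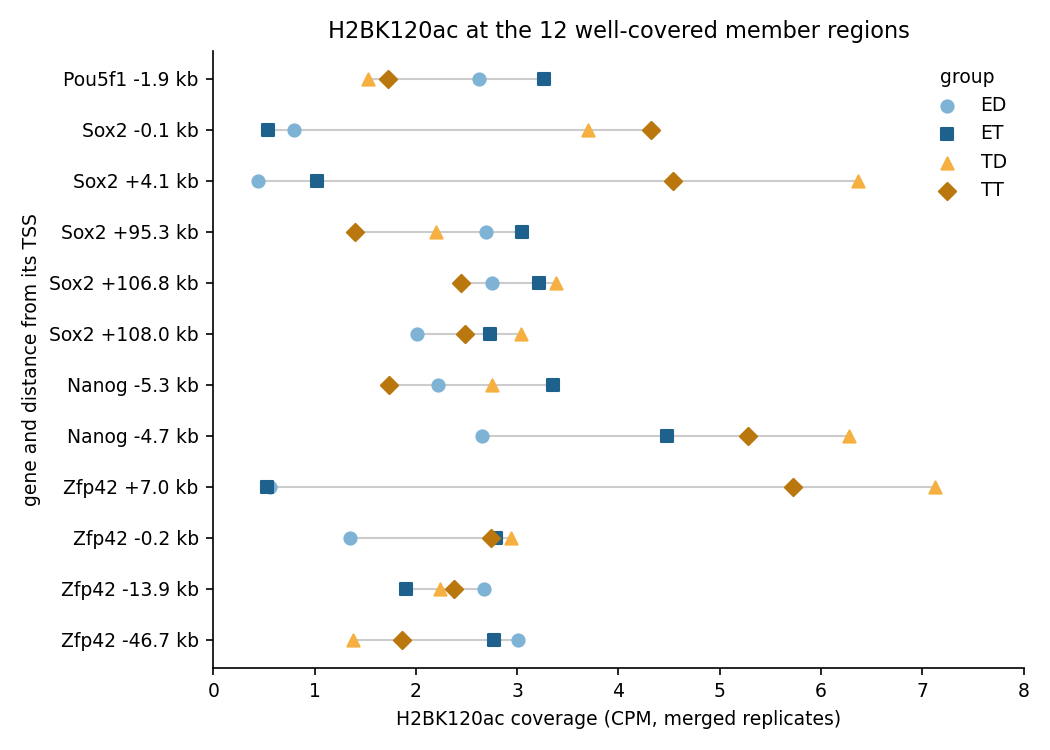
H2BK120ac coverage in CPM (x axis) in the 4 groups at the 12 well-covered regions (rows, by gene and distance from the TSS), 1 point per merged group. TD and TT lie between 3.70 and 7.12 at Sox2 -0.1 kb, Sox2 +4.1 kb and Zfp42 +7.0 kb, where ED and ET lie between 0.445 and 1.03.

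The Sox2 proximal region, 140 bp upstream of the TSS, had 0.798 (ED), 0.546 (ET), 3.70 (TD) and 4.33 (TT). The ratio was 4.64 (0.862 to 39.6) for TD against ED and 7.93 (1.32 to 404) for TT against ET. Both TD and TT were thus above both ED and ET, on about 2 fragments or fewer in ED and ET. The region 4064 bp downstream had 0.445 (ED), 1.03 (ET), 6.36 (TD) and 4.54 (TT), with ratios of 14.3 (2.13 to 584) and 4.43 (1.12 to 47.5). At 18638 bp the values were 0.222, 0.445, 2.04 and 1.38, and the intervals of both ratios, 9.15 (0.518 to 219) and 3.10 (0.224 to 147), included 1. The H3K27ac-rich stretch 95.3 to 111.4 kb downstream looked otherwise. Its region at 106837 bp (34756647 to 34757018) had 2.75 (ED), 3.22 (ET), 3.39 (TD) and 2.45 (TT), with ratios of 1.23 (0.375 to 4.31) and 0.760 (0.222 to 2.77). At 108004 bp the values were 2.01, 2.73, 3.04 and 2.48, and at 95324 bp they were 2.69, 3.05, 2.19 and 1.40. In these 3 regions the values of ED and ET and those of TD and TT overlapped or, at 95324 bp, lay the other way. At 110315 bp (34760053 to 34760568) ET was the highest, with 2.29 beside 0.707 in ED, 1.15 in TD and 1.10 in TT. The same held at 111379 bp (34761120 to 34761628), with 2.24 in ET beside 1.63, 1.83 and 1.28.

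Summed over the 8 regions within 20 kb of Sox2, the ratio was 4.40 (1.90 to 10.4) for TD against ED and 3.19 (1.49 to 7.66) for TT against ET. Over the 5 regions 95.3 to 111.4 kb downstream it was 1.19 (0.650 to 2.16) and 0.644 (0.355 to 1.18). These 2 sets were formed after the values were seen, and the difference between them was not tested. Over the remaining 12 Sox2 regions the ratios were 0.412 (0.141 to 1.04) and 0.625 (0.264 to 1.61). Taken as the mean over kept regions, the log2 fold of Sox2 was 0.45 for TD against ED and 0.11 for TT against ET, and 1.56 and 1.47 when only regions within 20 kb were used.

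**Figure D3:**
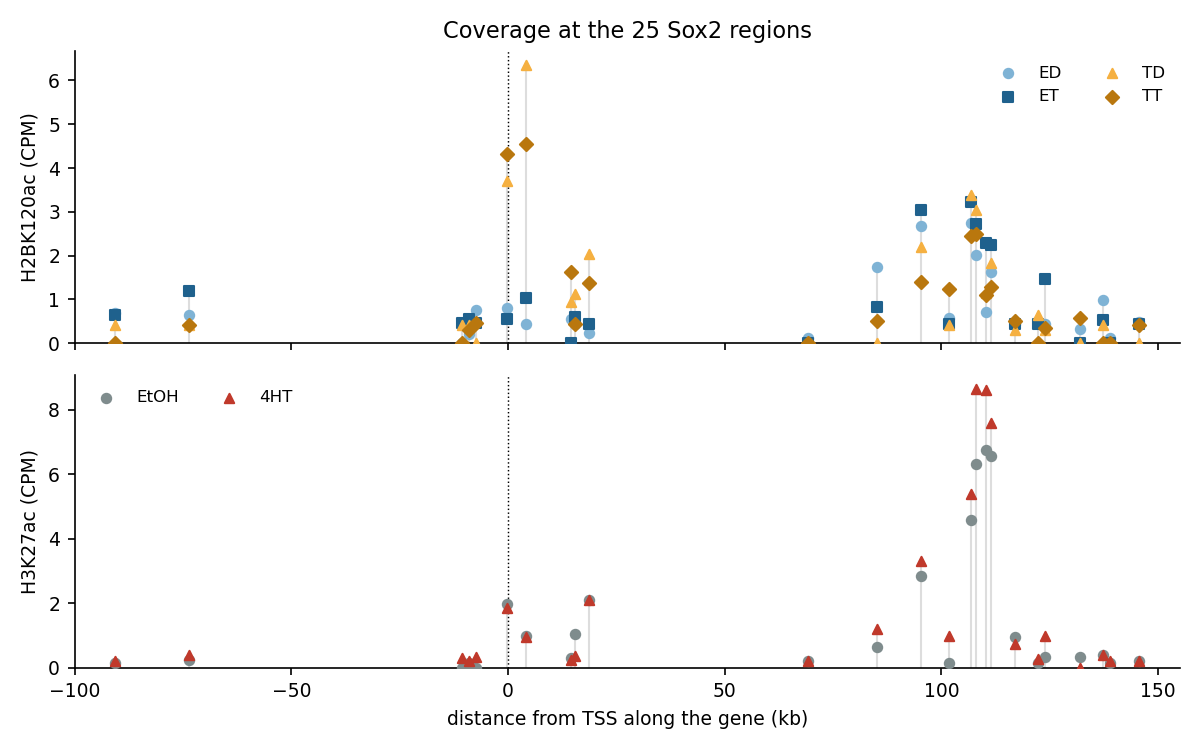
Coverage in CPM (y axes; H2BK120ac above, H3K27ac below) at the 25 Sox2 regions by distance from the TSS in kb (x axis), 1 point per merged group. TD and TT reach 6.36 and 4.54 at +4.1 kb, while EtOH and 4HT reach 6.75 and 8.64 between 106.8 and 111.4 kb downstream.

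At Zfp42 the region 7048 bp downstream, inside the gene, had 0.556 (ED), 0.536 (ET), 7.12 (TD) and 5.72 (TT). The ratios were 12.8 (2.46 to 657) for TD against ED and 10.7 (1.98 to 551) for TT against ET, each against about 1 fragment. This was the member region with the most H2BK120ac in TD and in TT, whereas H3K27ac there was 1.22 in EtOH and 1.15 in 4HT. The region 1097 bp downstream had 0.438, 0.915, 2.94 and 1.20 in ED, ET, TD and TT, high in TD alone (ratio to ED 6.73, 0.832 to 292). A further region inside the gene, 10978 bp downstream (43295863 to 43296200), had 3.62 in TD, beside 0.728 in TT, 0.445 in ET and none in ED, and was not well covered. At the proximal region ED stood apart, with 1.35 beside 2.79 in ET, 2.94 in TD and 2.74 in TT. Its ratio was 2.18 (0.493 to 12.9) for TD against ED and 0.985 (0.313 to 3.91) for TT against ET. The region 13903 bp upstream, which had the most H3K27ac of the locus, had 2.67, 1.90, 2.23 and 2.38, with no order by group. At 46698 bp upstream the values were 3.01 (ED), 2.77 (ET), 1.38 (TD) and 1.87 (TT), so that ED and ET were higher, with ratios of 0.460 (0.0661 to 1.74) and 0.673 (0.129 to 2.62). Summed over all 19 regions the ratio was 1.74 (1.13 to 2.66) for TD against ED and 1.28 (0.852 to 1.98) for TT against ET. In units of 1 fragment the sums were 67.3 in TD and 35.7 in ED. The regions 7048 and 10978 bp downstream gave 17.3 and 8.80 in TD, beside 1.25 and none in ED. Much of the difference in the sums thus lay in these regions, the first of them well covered through TD and TT alone. Of the 6 members with a kept region, Zfp42 was the one whose summed interval lay above 1 for TD against ED, and none did for TT against ET; over all genes 7.53% and 6.25% lay above 1 and 2.99% and 3.88% below.

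**Figure D4:**
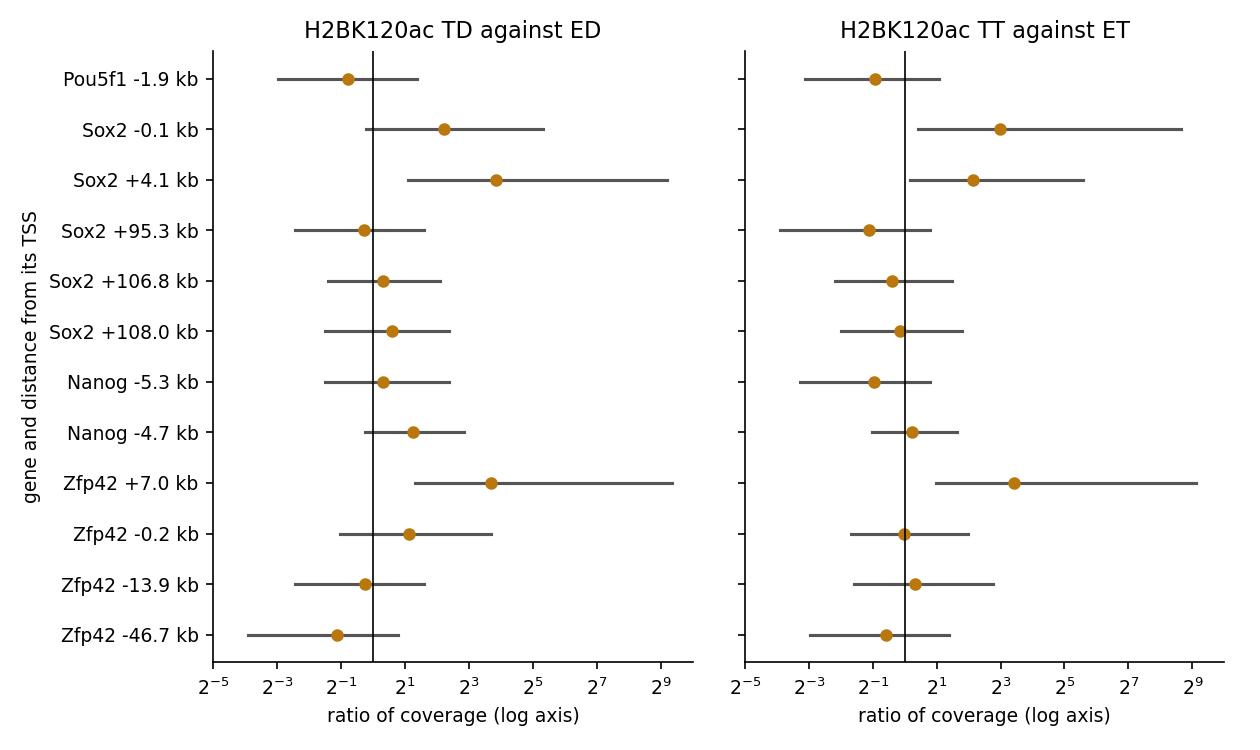
Ratio of H2BK120ac coverage (x axes, log) for TD against ED (left) and TT against ET (right) at the 12 well-covered regions. Bars are 95% Clopper-Pearson intervals on mean depth. The bars lie above 1 for Sox2 +4.1 kb and Zfp42 +7.0 kb in both panels and for Sox2 -0.1 kb on the right only; after quantile normalization 1 region on the left and 2 on the right are 2-fold lower.

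The interval of the ratio lay above 1 for 2 of the 12 regions in TD against ED, beside 41.6% of all well-covered regions, and for 3 in TT against ET, beside 32.6%. It lay below 1 for none, beside 9.78% and 12.7%. The regions above 1 are the 3 of Sox2 and Zfp42 that passed the filter through TD and TT alone, so these counts are a description too.

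At the main region of Pou5f1 the order was the other way. The region 1904 bp upstream had 2.62 (ED), 3.26 (ET), 1.53 (TD) and 1.72 (TT), so that both ED and ET were above both TD and TT. The ratios were 0.584 (0.128 to 2.60) and 0.528 (0.114 to 2.09). The 2 neighbouring regions were high in ET alone. At 1380 bp upstream the values were 0.883 (ED), 3.69 (ET), 1.05 (TD) and 0.630 (TT), and at 1116 bp upstream 0.373, 3.46, 1.06 and 1.21. The ratio of TT to ET was 0.171 (0.0241 to 1.17) and 0.350 (0.0597 to 1.45) there. In the proximal region TD and TT were the higher ones, with 0.111 (ED), 0.445 (ET), 1.30 (TD) and 2.0 (TT), and the ratio of TT to ET was 4.50 (0.521 to 220). Inside the gene, 3538 bp downstream, TT had 1.80 and TD 0.918, beside 0.445 in ED and no coverage in ET. None of the 7 regions gave an interval of TD against ED or TT against ET that excluded 1. At 3101 bp upstream ED had 1.05, ET 0.334, TD 0.452 and TT none, and at 15484 bp upstream the values were 0.823, 0.916, 1.39 and 0.469.

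At Nanog the region 4725 bp upstream had 2.66 (ED), 4.47 (ET), 6.28 (TD) and 5.28 (TT). The ratio was 2.36 (0.848 to 7.27) for TD against ED and 1.18 (0.490 to 3.08) for TT against ET. In ET it was the member region with the most coverage, and it ranked 520 of all regions. Its neighbour 5350 bp upstream had 2.22, 3.35, 2.75 and 1.73, highest in ET. The region 11893 bp upstream was also highest in ET, with 2.95 beside 0.837 in ED, 0.412 in TD and 0.820 in TT. The proximal region had 0.790 (ED), 1.20 (ET), 1.19 (TD) and 0.211 (TT), on fewer than 3 fragments in each group. At 17253 bp upstream ED was the highest with 2.20, beside 1.30, 1.52 and 1.26, and at 13236 bp upstream no group passed 0.978. The 6 regions inside Slc2a3 held at most 1.24 in any group. Of these, 35100 bp downstream was 2-fold higher in TD than in ED (1.24 against 0.357), and 36058 bp downstream had 0.610 in TT and no coverage in ET.

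**Figure D5:**
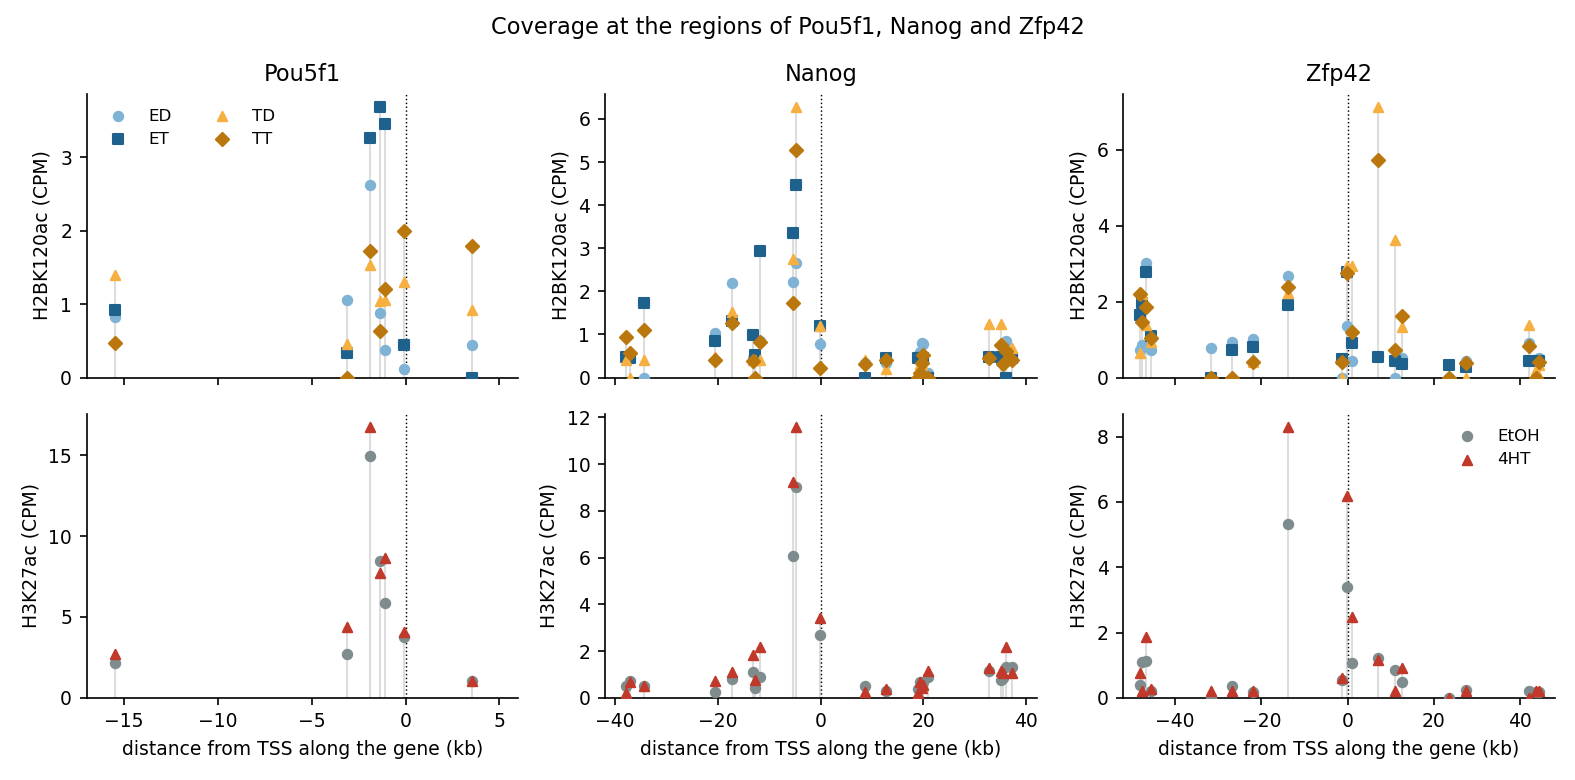
Coverage in CPM (y axes; H2BK120ac above, H3K27ac below) by distance from the TSS in kb (x axes) at the regions of Pou5f1, Nanog and Zfp42, 1 point per merged group. ET leads at the 3 Pou5f1 regions 1.1 to 1.9 kb upstream (3.26 to 3.69), and TD and TT lead at Nanog 4725 bp upstream (6.28 and 5.28) and Zfp42 +7.0 kb (7.12 and 5.72).

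H2BK120ac at Sall4, Utf1 and Lin28a stayed near the value of a few fragments. The Sall4 proximal region had 0.445, 0.430, 1.59 and 0.728 in ED, ET, TD and TT. At 1905 bp downstream they were 0.854, 0.654, 1.59 and 1.29, and at 5903 bp downstream 1.23, 0.663, 0.551 and 0.707. The Utf1 proximal region had 0.888, 0.373, 0.544 and 1.33, and the region 6692 bp downstream 0.646, 2.27, 1.27 and 1.39. At Lin28a no region reached a mean of 0.4. Its proximal region had 0.445 in ED and 0.111 in ET and no coverage in TD and TT, and its region 7001 bp downstream had 0.445, 0.111, 0.581 and 0.185. Differences at these 3 genes were not detectable at this depth.

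As means over regions with at least 0.4, the genes lay close together in ED, from 0.842 (Sall4) to 1.03 (Sox2), with Zfp42 at 1.02, Utf1 at 0.982, Nanog at 0.940 and Pou5f1 at 0.901. In ET Pou5f1 led with 1.73, followed by Nanog (1.31), Sox2 (1.23), Zfp42 (1.20), Utf1 (1.07) and Sall4 (0.582). In TD the order was Zfp42 (1.96), Sox2 (1.56), Sall4 (1.24), Nanog (1.21), Utf1 (1.11) and Pou5f1 (1.10). In TT Zfp42 (1.62) and Sox2 (1.36) again led, before Pou5f1 (1.12), Nanog (1.01), Sall4 (0.910) and Utf1 (0.859). As for H3K27ac, the mean of Sox2 was taken over a wider window than those of the other genes. None of the 6 gene means differed 2-fold in a comparison, beside 17.9% of 12226 genes higher and 8.06% lower for TD against ED and 15.6% and 8.54% for TT against ET. All 6 log2 folds were positive for TD against ED, beside 54.9% of all genes. They ran from 0.13 (Utf1) to 0.74 (Zfp42), although that of Pou5f1, 0.21, became -0.05 when regions were weighted by width. For TT against ET 3 of 6 were positive, near the 53.5% of all genes. Sall4 was at 0.41, Zfp42 at 0.33, Sox2 at 0.11, Utf1 at -0.22, Nanog at -0.27 and Pou5f1 at -0.49.

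ET was also compared with ED, and TT with TD. These comparisons share their columns with those above, so their folds are not independent of them. None of the 12 regions well covered in H2BK120ac differed 2-fold between ET and ED (background 10.4% higher, 3.85% lower) or between TT and TD (2.48% and 5.75%). Among the 36 regions well covered in H3K27ac, 5 were 2-fold higher in ET than in ED (13.9% beside 8.58%) and 2 were lower (5.56% beside 5.74%). The 5 were Pou5f1 1380 and 1116 bp upstream, Sox2 at 110315 bp, Nanog 11893 bp upstream and Utf1 at 6692 bp, and the 2 were Pou5f1 at 3538 bp and Nanog at 36058 bp. At 1116 bp upstream of Pou5f1 the ratio of ET to ED was 9.27 (1.07 to 355), on a mean depth of 0.84 of a fragment in ED. At 1380 bp it was 4.17 (0.799 to 38.7). Among the 5, which were picked for their fold, only the interval at 1116 bp excluded 1. The share of such intervals over all regions was not computed, so this one is a description and supports no difference. These 2 Pou5f1 regions, 35504567 to 35504737 and 35504815 to 35505017, are neighbours and may share fragments, so they are not separate observations. Between TT and TD none of the 36 was 2-fold higher (beside 6.88%) and 4 were lower (11.1% beside 8.89%), namely Pou5f1 15484 and 3101 bp upstream, Nanog 128 bp upstream and Zfp42 at 1097 bp. Over gene means, Pou5f1 had the largest log2 fold of ET against ED (0.71). For TT against TD all but Pou5f1 (0.02) were negative, while 50.4% of all genes were positive.

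The 2 marks were read in separate tables with different depths. Of the 90 regions, 12 were among the top 1% of all regions in EtOH and 11 in 4HT, and for ED, ET, TD and TT the numbers were 1, 6, 3 and 4. For the top 10% they were 33 and 31 for H3K27ac and 19, 25, 34 and 30 for H2BK120ac. Over all 127646 regions these shares are 1% and 10% by construction.

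The wider pluripotency network was taken as a list of 30 further genes, of which 29 were measured in H3K27ac and 28 in H2BK120ac. None was 2-fold different in H3K27ac between 4HT and EtOH, beside 2.15% of all genes higher and 0.915% lower. In 4HT 25 of 29 were higher, beside 65.5% of all genes. Their median log2 fold was 0.36, beside 0.16 over all genes and 0.25 over the 7 members. All genes include many of low coverage. Over all well-covered regions, counted as regions and not genes, 76.4% were higher, with a median of 0.33. That median was 0.02 after quantile normalization. Whether the network differs from other genes of like coverage was not tested. Tdgf1, a co-receptor of Nodal, had 5.25 in 4HT against 2.96 in EtOH, and Zscan10, a zinc-finger factor, 1.78 against 0.986. Dnmt3l, a cofactor of DNA methyltransferases, had the lower value in 4HT, 0.462 against 0.939. For TD against ED 7 of 28 were 2-fold higher (Gdf3, Klf4, L1td1, Rif1, Sox15, Tet1 and Zscan10) and none lower, beside 17.9% and 8.06% of all genes. Tet1, which oxidizes methylated cytosine, had 3.16 against 0.408, and Klf4, a Krüppel-like factor, 2.22 against 0.255. For TT against ET 5 were 2-fold higher (Gdf3, Rif1, Sox15, Tet1 and Zscan10) and none lower, beside 15.6% and 8.54%. Rif1, a regulator of replication timing, was at 4.80 against 0.821 and Gdf3, a growth factor of the TGF-β family, at 4.11 against 1.18. In these comparisons Tet1, Klf4, Rif1 and Gdf3 reached 5 fragments through the higher group alone. A difference was thus built into naming them. No gene of the network differed 2-fold between ET and ED (background 5.13% higher, 4.25% lower) or between TT and TD (4.06% and 4.33%). Esrrb, an orphan nuclear receptor, had 2.14 in TT against 1.31 in TD, whereas Tet1 had 1.82 against 3.16 and Klf4 1.27 against 2.22. The median of the members' log2 folds was 0.34 for TD against ED and -0.06 for TT against ET, beside 0.13 and 0.25 for the network and 0.10 and 0.07 for all genes.

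The genes whose profile was most like that of a member were found by the root mean square difference of log2 gene means over the 6 group columns among 11706 genes. Nearest to Nanog was Rtn4 (0.0648), followed by Fbrsl1 (0.0961) and Dppa2 (0.113), the last a gene of the network list. For Sox2 they were Acot11 (0.0984), D230025D16Rik (0.113) and Polr2m (0.116), and for Zfp42 Msantd2 (0.0849), Wee1 (0.104) and Prdm10 (0.125). Sall4 was nearest to Lsm14a (0.102), Tigd5 (0.110) and Psmd12 (0.139), and Utf1 to Rell1 (0.0967), Ankrd28 (0.114) and Wwc1 (0.123). Pou5f1 had no gene as near, with Zbtb45 at 0.284, Ranbp17 at 0.310 and Nucks1 at 0.323. Lin28a had no kept H2BK120ac region and was not compared.

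The distance limit left out 17 Sox2 regions beyond 150 kb, 5 of Sall4 and 4 of Zfp42 beyond 50 kb, and none of the other genes. The last Sox2 region inside, at 145699 bp, had 0.198 in EtOH and 0.207 in 4HT, and the first outside, at 164204 bp, had 0.485 and 0.758. For Sall4 the values were 0.674 and 0.862 at 24082 bp inside and 0.359 and 0.207 at 53656 bp outside. For Zfp42 they were 0.387 and 0.747 at 48100 bp and 0.302 and 0.207 at 55121 bp. The 14 Zfp42 and 11 Nanog regions that were neither well covered nor proximal had at most 1.11 in EtOH and 0.902 in 4HT. In H2BK120ac the other Nanog regions had at most 1.73 (in ET), the other Sox2 regions 1.73 (in ED) and the other Zfp42 regions 3.62 (in TD).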

How the data were processed

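The deposited values are coverage signal in CPM per region, given per the file headers for 127646 regions with 1 column per group, the replicates merged by the authors. The submitters' processing notes name mm10 for all samples and featureCounts and DESeq2, with no role, for H3K27ac. The aligner, the coverage program and the way the regions were set are not stated there, and the tables carry ATAC in their names. A region's mean appears to leave out bases without coverage, since no value lies below that of 1 fragment (0.25 of it in H2BK120ac), which raises sparsely covered regions. All 28 samples of the series carry the same genotype label, and the 12 phase-sorted ones were not analysed here. A further 16 IgG columns in 2 tables match no sample and were not used, so background was not subtracted.

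Missing values were counted as 0. Folds were taken as log2(value + pseudocount), which understates changes of low regions, with 0.4 for H2BK120ac and 0.2 for H3K27ac, the 25th percentile of positive values to 1 significant digit. Regions with a mean of at least the pseudocount were kept (44136 for H2BK120ac, 65565 for H3K27ac), and of the members 62 and 77. Of these 2782 and 13807 regions were well covered. A difference was called at 2-fold. For intervals, mean depths in units of 1 fragment were rounded to whole numbers, and the 95% Clopper-Pearson bounds of their share were turned into a ratio. A mean depth is not a count of fragments, and a sum of depths can hold a fragment that spans neighbouring regions more than once. Fragments are also not known to be independent molecules. The intervals thus cover counting error only, and only approximately. TSSs came from the RefSeq promoter table for 17492 genes and from the ends of gene spans near deposited TSS windows for 4000, Sall4 among them. The planned limma fits need replicates and were not run. Each member's text gives every region that was well covered in either table and the proximal one. From the network list, the 2 genes with the largest fold each way are named among those that reached 5 fragments in a group compared. A gene could thus be named through its higher group alone. A few other regions were added after their values were seen. The members and lists were chosen with earlier results of these data known. Pseudocount, minimum, scaling, window and region weights were varied. Python 3.11.15, pandas 2.3.3, numpy 2.4.6 and scipy 1.17.1 were used.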

Additional observations from a re-analysis of the deposited data

Results flagged for a closer look

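At 5 regions well covered in H2BK120ac, TD against ED and TT against ET had opposite directions, and the difference was not tested. With 1 merged column per group each direction rests on 1 pair of columns, and all 10 counting intervals include 1. The Sox2 regions at 106837 and 108004 bp had log2 folds of 0.27 and 0.51 for TD against ED and of -0.35 and -0.12 for TT against ET. The Nanog region 5350 bp upstream had 0.27 and -0.81. At Zfp42, the proximal region had 0.94 and -0.019, and the region 13903 bp upstream -0.22 and 0.27.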

How the results depend on the processing

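Of the counts of member regions under other settings, 49 stayed within 1.5 times the reported one and 19 did not. For H3K27ac, 2 regions were 2-fold higher in 4HT, and the count was 1 with a doubled pseudocount, 1 with median centring and 0 with quantile normalization, and with a minimum of 3 fragments it was 4 higher and 2 lower. For TD against ED (4 higher, 0 lower), 1 was lower with a halved pseudocount and 1 with quantile normalization. For TT against ET (3 higher, 0 lower), 1 was lower with a halved pseudocount, 2 with quantile normalization and 2 with a minimum of 3 fragments. At that minimum, ET against ED (0 and 0) had 4 higher, and TT against TD (0 and 0) had 1 higher and 1 lower. In the 36 regions well covered in H3K27ac, an alternative chosen after seeing the data, TD against ED had 8 higher, TT against ET 7 higher and 4 lower, ET against ED 5 higher and 2 lower, and TT against TD 4 lower. The lower minimum and the wider set hold more regions; the cause of the other moves was not tested. Quantile normalization shifted the median log2 fold of all well-covered regions by -0.32 for H3K27ac, -0.38 for TD against ED, -0.16 for TT against ET and 0.15 for TT against TD, and median centring by 0.19 for TT against ET. Of 217 gene folds 6 changed sign, none of them 2-fold. The changes not given in the text were Sox2 within 20 kb, at -0.18 for H3K27ac and -0.03 for ET against ED. Depth limits H2BK120ac, as 78 of the 90 regions held under 5 fragments on average. No replicate could be left out. No paired analysis was possible because each group has 1 merged column.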
